A study of Camellia sinensis and Camellia sinensis var. assamica with 18 samples.

Results

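The leaf transcriptomes of a cold-tolerant and a cold-sensitive tea cultivar were compared after both had been cold acclimated and then returned to normal temperature. The comparison took the 6 libraries SCZ_DA and YH9_DA, 3 of each, out of the 18 RNA-seq libraries of the study, and asked which transcripts still set the cultivars apart once the cold had been lifted. SCZ is the cultivar "Shuchazao" (Camellia sinensis) and YH9 is "Yinghong 9" (C. sinensis var. assamica). Tissue culture seedlings of 4 to 5 cm spent 7 days at 10 °C (day) and 4 °C (night), then 7 days at 4 °C and 0 °C, and finally 7 days at 25 °C and 20 °C, and leaves were taken on day 21 (de-acclimation, DA). The other libraries came from leaves taken on day 0 at 25 °C and 20 °C (non-acclimation, NA) and on day 14 at the end of the cold (cold acclimation, CA), with 3 libraries per cultivar and stage. A locus was tested when its FPKM, the number of sequenced fragments scaled by transcript length and library size, was at least 1 in at least 3 of the 18 libraries, which kept 29019 of 41021 loci. The plants had been propagated from cuttings, and each side of the comparison is 1 cultivar, so that a difference cannot be told apart from one between these clonal lines. All reads had been mapped to the tea reference genome, whose gene identifiers (CSS) come from Shuchazao, so that for a single locus a lower transcript level in YH9 and a poorer match of YH9 reads to the reference cannot be told apart. In whole leaves, fewer cells of a type and less RNA per cell cannot be told apart either.

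Cold acclimation is the gain of freezing tolerance during weeks of low but non-freezing temperature, and de-acclimation is its loss in the warm. In Arabidopsis, the transcription factors CBF and DREB bind the promoters of cold-regulated genes, among them those of late embryogenesis abundant (LEA) proteins and dehydrins, which protect membranes and proteins when a cell loses water. Soluble sugars, raffinose family oligosaccharides and the breakdown of starch add to this protection. Tea leaves are further known for catechins, which are flavonoids built from phenylalanine, for the purine alkaloids caffeine and theobromine, and for aroma terpenes, many of them stored as glycosides.

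The cultivars differed at many loci after de-acclimation. Of the 29019 loci, 3304 (11.4%) were higher in SCZ_DA and 3661 (12.6%) were lower, or 24.0% in all, at an adjusted p under 0.05 and a fold change of at least 2 in edgeR's quasi-likelihood test. This is called a difference here, and log2 fold changes are those of the scaled counts of SCZ_DA over YH9_DA, positive where SCZ_DA was higher. Loci with a product description were called less often than those without one. Among 20888 described loci 8.87% were higher and 9.40% lower in SCZ_DA, against 17.8% and 20.9% of the 8131 loci without a description. The described loci are the background for the gene lists, which were drawn from the descriptions. Of the 6965 called loci 98.3% had 3 FPKM values of 1 cultivar that all lay above those of the other, a separation that 52.5% of all loci tested showed. With log2(FPKM + 1) in limma in place of scaled counts, the median log2 fold change of all loci moved from 0.03 to −0.13 and the share of calls that were higher in SCZ_DA from 47.4% to 38.5%.

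The total of estimated counts per library was 55678493 to 58187658 in SCZ_DA and 49858297 to 67637781 in YH9_DA. SCZ_DA replicates were less alike than YH9_DA replicates. Pearson's r of log2(FPKM + 1) across loci, which are not independent replicates, was 0.925 to 0.938 within SCZ_DA, 0.963 to 0.971 within YH9_DA and 0.762 to 0.792 between them, and the biological coefficient of variation was 0.472 and 0.288. SCZ_DA replicate 3 held the highest values of many cold-type genes, and SCZ_DA replicate 2 those of several genes of the cell wall and of nitrate use. Counts of many lists, though not of all, are therefore given with the range, or with single counts, found when each DA library was left out. Without SCZ_DA replicate 3, 5896 loci were called (2862 higher and 3034 lower), and 80.8% of the full set of calls were among them. The labels do not say which libraries came from which of the independent experiments that the study mentions. The p-values therefore measure the spread between libraries, estimated over all 18 libraries and not from the 6 DA libraries alone. With the DA libraries alone 7393 loci were called, and 93% of the full set of calls were among them. Of the loci named below, CSS027438, CSS028185, CSS040431, CSS009939 and CSS028593 lost their call in that fit. Defining markers of the leaf mesophyll were abundant in all 6 libraries, with summed levels of 12187 to 17384 FPKM in SCZ_DA and 9383 to 12416 FPKM in YH9_DA, and 5 of 25 were higher and 2 lower in SCZ_DA. Markers of meristem, such as KNOTTED-like and WUSCHEL-related genes, were at 116 to 149 FPKM in SCZ_DA and 200 to 295 FPKM in YH9_DA, with 6 of 18 lower in SCZ_DA. The list of histones and cell division did not follow this direction. It summed to 1539 to 2604 FPKM in SCZ_DA and 1512 to 1696 FPKM in YH9_DA, with 4 of 42 loci higher and 1 lower. Markers of xylem summed to 93.8 to 152 FPKM in SCZ_DA and 196 to 308 FPKM in YH9_DA, and those of root type to 263 to 309 FPKM and 354 to 393 FPKM. Of 22 root-type loci 3 were higher and 1 lower in SCZ_DA, against the direction of their sum. The sums of phloem (92.3 to 120 FPKM in SCZ_DA and 91.2 to 97.2 FPKM in YH9_DA) overlapped. So did those of guard cell (13.3 to 26.8 and 14.7 to 17.5 FPKM) and of trichome and epidermis (295 to 611 and 434 to 587 FPKM). Called shares were 28% for the mesophyll, 33.3% for the meristem and 11.9% for the histone list, against 18.3% of described loci. Markers under the filter on low values are left out of these sums and counts, and the part of the cell types in the differences below was not tested.

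**Figure D1:**
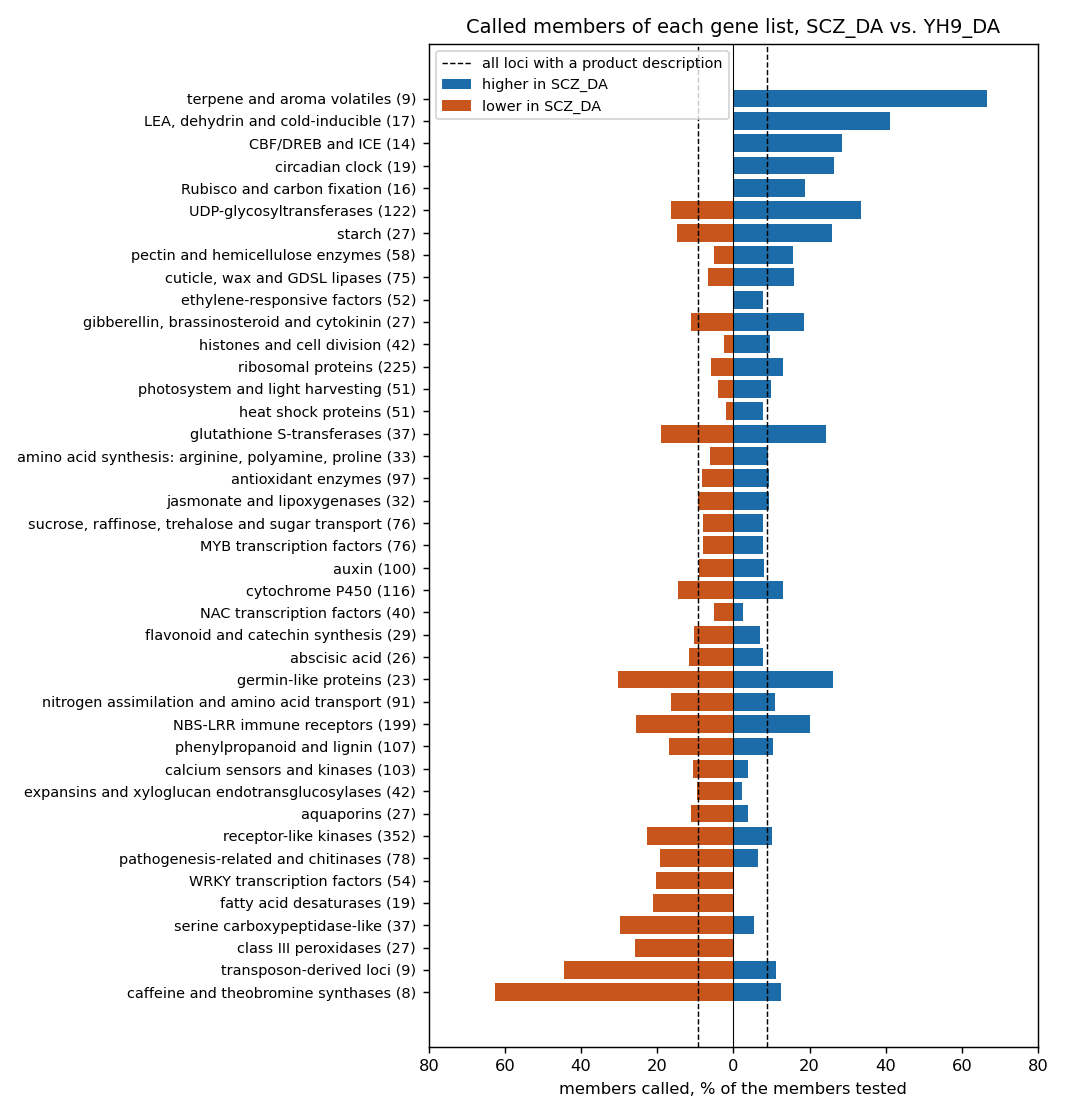
Share of the tested members of each gene list, markers left out, that were higher (right, blue) or lower (left, orange) in SCZ_DA than in YH9_DA, in percent, with the number tested in brackets. Dashed lines mark the shares among all loci with a product description, 8.87% higher and 9.40% lower. The caffeine and the terpene list lie at the opposite ends, and in both the filter on low values can favor the direction of some members.

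Several transcripts of the cold response were higher in SCZ_DA, while most loci of these lists were not called. Of 17 LEA, dehydrin and cold-inducible loci 7 were higher and 0 lower in SCZ_DA by edgeR and 10 were not called, with a median log2 fold change of 0.51 over the list. At an unadjusted p under 0.05 the lower count was also 0, as it was with DESeq2 and limma. The 7 are 41.2% of the list, against 8.87% higher among described loci. The higher count was 4 without SCZ_DA replicate 3 and without YH9_DA replicates 1 or 2, and 3 with limma on log2(FPKM + 1). At NA, where 6.93% of described loci were higher and 6.17% lower, 1 member was higher, and at CA, with 10.4% and 12.1%, 4 were higher. The median log2 fold change of the list was 1.08 at NA and 0.57 at CA, so that it was not larger at DA than at the other stages. The summed level of the list was 1236, 1643 and 6587 FPKM in SCZ_DA replicates 1 to 3 and 546, 687 and 603 FPKM in YH9_DA, so that the SCZ_DA libraries lay above the YH9_DA libraries and also differed widely among themselves. Replicate 3 held the highest value of the 6 libraries at 10 of the 17 loci.

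The dehydrin locus CSS006326 differed most within this list. It had 155, 660 and 4149 FPKM in SCZ_DA replicates 1 to 3 and 9.76, 22.9 and 24.8 FPKM in YH9_DA (log2 fold change 6.63, SE 1.01, edgeR adjusted p = 0.000178). All SCZ_DA values lay above all YH9_DA values, and replicate 3 was the highest by far. At NA the log2 fold change of this locus was −0.42 and at CA 1.82, neither of them called (edgeR adjusted p = 0.79 and 0.099). The LEA locus CSS038121 was more even, with 115, 143 and 208 FPKM against 22.6, 28.4 and 22.6 FPKM (2.84, SE 0.26, edgeR adjusted p = 2.24e-06). CSS041102, also an LEA protein, had 54.7, 88.1 and 136 FPKM in SCZ_DA and 33.0, 37.2 and 39.9 FPKM in YH9_DA (1.51, SE 0.32, edgeR adjusted p = 0.00207). Both were higher in each SCZ_DA library than in any YH9_DA library. LEA 3L-1 (CSS015767) had 316, 488 and 1133 FPKM against 189, 222 and 252 FPKM (1.73, SE 0.56, edgeR adjusted p = 0.0287). A chloroplast inner membrane protein of the COR413 type (CSS037540) had 42.7, 58.4 and 104 FPKM against 32.4, 32.9 and 34.2 FPKM (1.22, SE 0.31, edgeR adjusted p = 0.00773). These differences were not called without SCZ_DA replicate 3 or with limma on FPKM, and that of CSS015767 also not without any one YH9_DA library. Another abundant cold-inducible locus of the list, CSS024403, overlapped between the cultivars at 497, 158 and 758 FPKM in SCZ_DA and 222, 299 and 190 FPKM in YH9_DA and was not called (1.19, SE 0.66, edgeR adjusted p = 0.203).

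The study measured several of these genes by RT-qPCR, and its primers show which copies were meant. The forward primers of the 2 CBF-like loci begin with the letters of a start codon, set in capitals, and those of the LEA loci do not.
CSS002244 CBF-like protein 1, forward: ATGgatttcaacaaagaaacg
CSS002244 CBF-like protein 1, reverse: ccaacaaaacctcgtcgtca
CSS018717 CBF-like protein, forward: ATGgatttggacatggaaatc
CSS018717 CBF-like protein, reverse: ccagcaccactgccacaa
CSS041102 LEA protein, forward: ctgatggagaaggcgaagaac
CSS041102 LEA protein, reverse: ggaacggagtgactgtaagg
CSS015767 LEA 3L-1, forward: ggcagcatcacaaggagttg
CSS015767 LEA 3L-1, reverse: cttcaagagcatctcacgcaat

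Among the factors that act upstream of these genes, the called loci were also higher in SCZ_DA. Of 14 CBF, DREB and ICE loci 4 were higher, 0 lower and 10 not called by edgeR (6 and 0 at an unadjusted p under 0.05 and with DESeq2, 3 and 0 with limma), with a median log2 fold change of 0.81. The 4 are 28.6% of the list, against 8.87% higher among described loci, and leaving out 1 DA library gave 3 to 6 higher. At NA 1 was higher, and at CA 1 was higher and 1 lower. CSS018720, a CBF-like protein, had 8.83, 37.7 and 105 FPKM in SCZ_DA and 4.59, 1.48 and 3.12 FPKM in YH9_DA (4.24, SE 0.78, edgeR adjusted p = 0.000816). CSS002244, whose primers are shown above, had 2.84, 2.96 and 23.4 FPKM in SCZ_DA and 0.656, 0.497 and 0.129 FPKM in YH9_DA (4.65, SE 1.09, edgeR adjusted p = 0.00445). In both, the groups did not overlap and replicate 3 was the highest library. The DREB3 locus CSS002624 had 14.3, 14.6 and 51.8 FPKM against 3.27, 1.83 and 1.65 FPKM (3.77, SE 0.72, edgeR adjusted p = 0.0011). The most abundant of the called members, another DREB3 locus (CSS028185), had 30.6, 47.4 and 69.5 FPKM against 17.8, 32.0 and 28.4 FPKM (1.09, SE 0.38, edgeR adjusted p = 0.0438), with overlapping groups and a call lost in 16 of 33 other settings, among them the fits without SCZ_DA replicates 2 or 3 or any one YH9_DA library. The other CBF-like primer target, CSS018717, overlapped between the cultivars, with 2.99, 9.02 and 22.5 FPKM in SCZ_DA and 8.80, 3.10 and 5.32 FPKM in YH9_DA, and was not called (1.19, SE 0.61, edgeR adjusted p = 0.163), although it was without SCZ_DA replicate 1. The CBF-like copies thus differed between the cultivars to different extents, and the loci are similar enough in name that reads shared between copies may have been split. In edgeR's interaction of cultivar and stage, 0 loci of the LEA or the CBF list were called for DA minus NA or DA minus CA. Over all loci tested the called shares were 0.00689% and 1.72%, so that 0 in lists of this size is near them. These counts therefore do not show whether the cultivar difference at these loci changed between the stages.

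Single loci of the water deficit response and of sugar metabolism differed in either direction. ATHB-12 (CSS047415), a homeodomain factor of the water deficit response in Arabidopsis, had 3.78, 20.6 and 129 FPKM in SCZ_DA and 0.244, 0.292 and 0.62 FPKM in YH9_DA (7.23, SE 1.21, edgeR adjusted p = 0.000385). Galactinol synthase 3 (CSS001889), which makes the galactosyl donor for raffinose, had 11.3, 13.4 and 196 FPKM against 2.22, 2.67 and 2.62 FPKM (5.08, SE 1.26, edgeR adjusted p = 0.00654). Without SCZ_DA replicate 3 the log2 fold change of CSS001889 was 2.44 and was not called. Galactinol synthase 2 (CSS021111) showed the opposite direction, with 17.6, 5.89 and 21.3 FPKM in SCZ_DA and 192, 94.0 and 91.4 FPKM in YH9_DA (−2.87, SE 0.73, edgeR adjusted p = 0.0077). These galactinol synthase loci thus differed between the cultivars in opposite directions. Within SCZ_DA, CSS001889 was not the more abundant of them in every library, with 11.3 FPKM against 17.6 FPKM for CSS021111 in replicate 1. Over the whole list of sucrose, raffinose, trehalose and sugar transport, 6 of 76 loci were higher and 6 lower in SCZ_DA, both near the background. An auxin-repressed protein (CSS035508) had 29.5, 71.5 and 352 FPKM in SCZ_DA and 8.85, 25.5 and 22.6 FPKM in YH9_DA (3.18, SE 0.71, edgeR adjusted p = 0.00343), again highest in replicate 3.

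In the list of abscisic acid, the hormone of water deficit, 3 of 26 loci were lower and 2 higher in SCZ_DA, near the 9.40% and 8.87% of described loci, and the median log2 fold change was 0.20. The lower loci are described as receptors of the hormone. PYR1 (CSS052815) had 0.912, 0.366 and 0.151 FPKM in SCZ_DA and 10.6, 8.95 and 12.7 FPKM in YH9_DA (−4.30, SE 1.06, edgeR adjusted p = 0.00655). PYL4 (CSS039133) had 5.46, 8.6 and 6.16 FPKM against 13.8, 26.2 and 29.9 FPKM, and PYL2 (CSS030323) had 3.24, 3.26 and 2.38 FPKM against 5.01, 8.86 and 8.15 FPKM. The log2 fold changes of the latter were −1.63 and −1.15 (edgeR adjusted p = 0.0272 and 0.0176). Without SCZ_DA replicate 3, and without YH9_DA replicates 2 or 3, 1 member, CSS052815, was called lower, and the call of CSS039133 was also lost without SCZ_DA replicate 1.

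**Figure D2:**
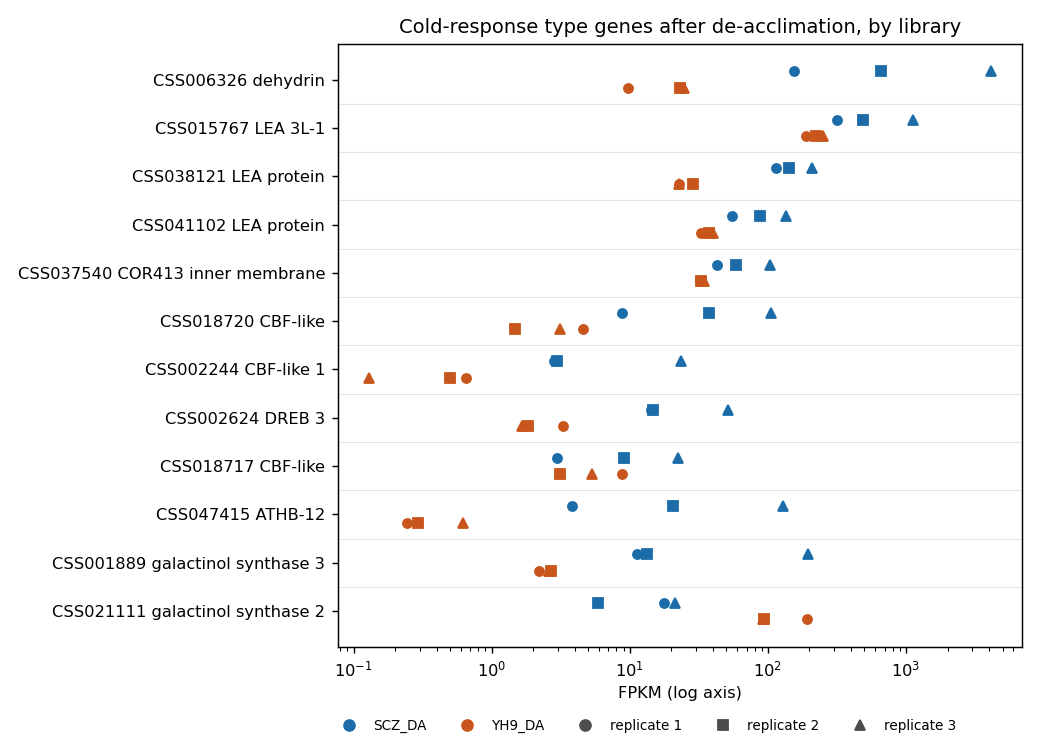
FPKM on a log axis of cold-response type genes in each SCZ_DA (blue) and YH9_DA (orange) library, with a marker shape for each replicate. SCZ_DA replicate 3 (triangle) is the highest library at the dehydrin CSS006326 (4149 FPKM) and at most of the other genes, while galactinol synthase 2 is higher in YH9_DA.

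Photosynthesis and starch transcripts differed at single loci. Of 51 photosystem and light-harvesting loci 5 were higher and 2 lower in SCZ_DA, near the background, with a median log2 fold change of 0.59. Leaving out 1 DA library gave 1 to 5 higher, with 1 without YH9_DA replicate 1, 2 without SCZ_DA replicates 1 or 2 or YH9_DA replicate 2 and 3 without YH9_DA replicate 3. Rubisco activase (CSS047135), which keeps the carbon-fixing enzyme active, had 695, 896 and 620 FPKM in SCZ_DA and 31.5, 39.2 and 33.6 FPKM in YH9_DA (4.57, SE 0.58, edgeR adjusted p = 4.11e-05). A chlorophyll a-b binding protein (CSS021240) had 0.814, 1.36 and 0.892 FPKM in SCZ_DA and 22.4, 76.8 and 65.1 FPKM in YH9_DA (−5.57, SE 0.51, edgeR adjusted p = 2.73e-06). Both loci were far apart between the cultivars in every library, and both differed in the same direction at NA (3.51 and −7.20) and CA (3.38 and −4.75). In the starch list 7 of 27 loci were higher and 4 lower, 40.7% against 18.3% of described loci. With 1 DA library left out, 6 or 7 were higher and 0 to 2 lower. Soluble starch synthase 1 (CSS041425) had 13.2, 19.7 and 17.6 FPKM in SCZ_DA and 1.22, 4.31 and 2.88 FPKM in YH9_DA (2.74, SE 0.54, edgeR adjusted p = 0.00135). Isoamylase 3 (CSS014823), a debranching enzyme of starch breakdown, had 8.51, 10.8 and 20.7 FPKM against 5.16, 4.75 and 5.82 FPKM (1.53, SE 0.36, edgeR adjusted p = 0.00446). Beta-amylase 4 (CSS019021) had 37.4, 38.8 and 76.6 FPKM against 19.5, 11.5 and 17.2 FPKM (1.85, SE 0.42, edgeR adjusted p = 0.00364). Beta-amylase 5 (CSS024024), another RT-qPCR target of the study, had 3.81, 5.04 and 9.34 FPKM against 1.62, 2.57 and 2.18 FPKM (1.69, SE 0.39, edgeR adjusted p = 0.00384). These starch loci were higher in every SCZ_DA library. Starch synthase 4 (CSS043679) and alpha-glucan water dikinase (CSS053193), which phosphorylates starch for its breakdown, were lower in SCZ_DA, at 12.3, 9.44 and 7.60 FPKM against 22.9, 25.1 and 22.2 FPKM and at 8.32, 7.19 and 7.79 FPKM against 18.3, 20.6 and 20.9 FPKM. The call of CSS043679 was lost without SCZ_DA replicate 3 and that of CSS053193 without any one of the 6 DA libraries.

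Ribosomal protein loci were called about as often as other described loci. Of 225 ribosomal protein loci 29 were higher and 13 lower, a share of 18.7% close to the 18.3% of all described loci, and leaving out 1 DA library gave 22 to 32 higher and 10 to 12 lower. At NA 14 were higher and 23 lower, and the median log2 fold change was −0.17 there and 0.38 at DA. Among the most abundant, the chloroplast ribosomal proteins S6 (CSS033675) and L18 (CSS047303) had 186, 201 and 190 FPKM against 49.3, 58.9 and 50.2 FPKM and 260, 237 and 211 FPKM against 89.5, 113 and 98.0 FPKM. Their log2 fold changes were 2.03 (SE 0.33, edgeR adjusted p = 0.000294) and 1.40 (SE 0.26, edgeR adjusted p = 0.000892). Of 19 clock loci 5 were higher and 0 lower (6 and 0 at an unadjusted p under 0.05, 5 and 0 with DESeq2, 2 and 1 with limma). The 5 are 26.3% of the list, against 8.87% higher among described loci. REVEILLE 6 (CSS033820), a morning-phased MYB factor in Arabidopsis, had 48.8, 35.0 and 36.2 FPKM in SCZ_DA and 9.37, 6.07 and 8.29 FPKM in YH9_DA (2.51, SE 0.25, edgeR adjusted p = 5.19e-06). APRR5 (CSS005113), an evening repressor of the Arabidopsis clock, had 21.3, 19.2 and 32.8 FPKM against 11, 11.4 and 9.95 FPKM (1.36, SE 0.30, edgeR adjusted p = 0.00324). Both held in every library. APRR1 (CSS027438) had 4.19, 4.47 and 32.5 FPKM against 3.73, 2.52 and 3.41 FPKM (2.30, SE 0.60, edgeR adjusted p = 0.00927), and this call rested on SCZ_DA replicate 3, without which the log2 fold change was 0.58. The hour of the day at which leaves were taken was not given in the sources used here.

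Where WRKY factors, pathogenesis-related proteins and class III peroxidases differed, most were lower in SCZ_DA, while most members of these lists were not called. Of 54 WRKY factors 11 were lower, 0 higher and 43 not called by edgeR, where the unadjusted test, DESeq2 and limma also gave 0 higher and 19, 17 and 12 lower. The 11 are 20.4% of the list, against 9.40% lower among described loci. The lower count was 6 without SCZ_DA replicate 3 or without YH9_DA replicate 1. At NA 4 were lower and 1 higher, and at CA 15 lower and 3 higher. WRKY70 (CSS023898), which in Arabidopsis acts between the salicylate and jasmonate pathways, had 4.69, 6.62 and 2.38 FPKM in SCZ_DA and 61.9, 36.8 and 42.8 FPKM in YH9_DA (−3.21, SE 0.66, edgeR adjusted p = 0.00179). WRKY20 (CSS038261) had 4.61, 3.82 and 2.74 FPKM against 18.7, 14 and 13.4 FPKM (−1.87, SE 0.23, edgeR adjusted p = 2.8e-05), and WRKY7 (CSS027280) had 19.7, 18.1 and 11.8 FPKM against 50.0, 39.1 and 33.8 FPKM (−1.14, SE 0.32, edgeR adjusted p = 0.0134). The groups did not overlap at any of these factors, and the call of CSS027280 was lost without SCZ_DA replicate 3 or YH9_DA replicate 1.

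Among the products of the defense response, 15 of 78 pathogenesis-related and chitinase loci were lower, 5 higher and 58 not called in SCZ_DA, with a median log2 fold change of −0.53. Called members made up 25.6% of the list, against 18.3% of described loci. Leaving out 1 DA library gave 9 to 14 lower and 2 to 6 higher, with 9 lower without SCZ_DA replicate 3, 3 higher without SCZ_DA replicate 2 or YH9_DA replicate 2 and 2 higher without YH9_DA replicate 1. A PR-4-like protein (CSS024925) had 9.63, 6.57 and 7.29 FPKM in SCZ_DA and 52.7, 62.6 and 52.4 FPKM in YH9_DA (−2.66, SE 0.38, edgeR adjusted p = 0.000122). Thaumatin-like protein 1b (CSS031535) had 10.5, 12.2 and 5.57 FPKM against 51.8, 82.1 and 78.4 FPKM (−2.76, SE 0.53, edgeR adjusted p = 0.0011). A second thaumatin-like protein (CSS035666) had 24.9, 9.61 and 3.63 FPKM against 54.7, 72.0 and 80.5 FPKM (−2.27, SE 0.57, edgeR adjusted p = 0.0073). Each was lower in every SCZ_DA library. Of 27 class III peroxidases, which act on the cell wall, 7 were lower and 0 higher by edgeR (12 and 1 at an unadjusted p under 0.05, 10 and 1 with DESeq2, 11 and 1 with limma), and 4 were lower without YH9_DA replicate 3. The 7 are 25.9% of the list, against 9.40% lower among described loci. Pericarp peroxidase 3 (CSS052009) had 22.1, 6.84 and 2.16 FPKM against 101, 67.0 and 89.8 FPKM (−2.88, SE 0.77, edgeR adjusted p = 0.0107). An antimicrobial defensin (CSS053025) was an exception, with 86.8, 30.6 and 130 FPKM in SCZ_DA and 0.796, 0.416 and 0.227 FPKM in YH9_DA (7.59, SE 0.99, edgeR adjusted p = 5.09e-05).

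Immune receptors differed in both directions and by large factors. Of 352 receptor-like kinases 80 were lower and 36 higher in SCZ_DA, and of 199 NBS-LRR receptors, the intracellular sensors of pathogen effectors, 51 were lower and 40 higher. These are 33.0% and 45.7% of the loci tested, against 18.3% of all described loci, and families of such receptors are known to vary between plant lines in sequence and in copy number. Leaving out 1 DA library gave 65 to 75 lower and 31 to 38 higher receptor-like kinases. An LRR receptor-like kinase (CSS022204) had 0.468, 0.535 and 0.470 FPKM in SCZ_DA and 52.6, 35.0 and 35.9 FPKM in YH9_DA (−6.20, SE 0.25, edgeR adjusted p = 1.45e-09). A G-type lectin receptor kinase (CSS006999) had 0.226, 0.182 and 0.416 FPKM against 44.6, 45.5 and 41.1 FPKM (−7.12, SE 0.47, edgeR adjusted p = 1.54e-07), and a kinase described as FLS2 (CSS014110), in Arabidopsis the receptor of bacterial flagellin, had 0.094, 0.0896 and 0.163 FPKM against 16.1, 38.5 and 28.1 FPKM (−7.72, SE 0.50, edgeR adjusted p = 1.32e-07). Transcripts of these receptors were close to absent in SCZ_DA. In the other direction, the receptor-like kinase CSS021772 had 64.6, 34.5 and 33.8 FPKM in SCZ_DA and 2.41, 3.29 and 2.60 FPKM in YH9_DA, and the disease resistance locus CSS026093 had 30.2, 39.8 and 30.8 FPKM against 6, 5.50 and 4.37 FPKM. The disease resistance locus CSS006607 was lower in SCZ_DA, with 2.34, 6.61 and 4.51 FPKM against 47.3, 81.4 and 68.7 FPKM (−3.72, SE 0.61, edgeR adjusted p = 0.000327).

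Of the calcium sensors and kinases that relay cold and defense signals, 11 of 103 were lower and 4 higher in SCZ_DA, near the background. Calcium-dependent protein kinase 12 (CSS010165) had 13.0, 15.9 and 23.9 FPKM in SCZ_DA and 0.866, 2.27 and 1.14 FPKM in YH9_DA (3.79, SE 0.44, edgeR adjusted p = 2.01e-05), and a CBL-interacting kinase (CSS050110) had 27.8, 37.7 and 63.6 FPKM against 9.55, 11.3 and 10.9 FPKM (2.2, SE 0.36, edgeR adjusted p = 0.000326). The calmodulin-like sensor CML23 (CSS003460) had 21.8, 18.7 and 17.8 FPKM against 52.5, 61.1 and 55.5 FPKM, and calmodulin-binding protein 60 A (CSS031147) had 43.9, 25.6 and 16.5 FPKM against 90.4, 101 and 88.7 FPKM. All 4 were separated between the cultivars, and the call of CSS031147 was lost without SCZ_DA replicates 2 or 3. In the jasmonate and lipoxygenase list 3 of 32 loci were higher and 3 lower, near the 8.87% and 9.40% of described loci. Within the pathway, a chloroplast 13-lipoxygenase (CSS021042) had 38.5, 53.8 and 63.8 FPKM in SCZ_DA and 18.4, 16.8 and 20.4 FPKM in YH9_DA, and allene oxide cyclase (CSS023906) had 17.7, 47.9 and 17.9 FPKM against 11.3, 6.96 and 10.8 FPKM. Another lipoxygenase (CSS048982) had 3.09, 2.23 and 2.38 FPKM against 17.4, 20.8 and 27.5 FPKM, and 12-oxophytodienoate reductase 11 (CSS013258) had 3.90, 2.17 and 2.60 FPKM against 19.2, 17.4 and 15.0 FPKM. These loci differed in opposite directions, and the call of CSS023906 was lost without SCZ_DA replicate 2 or YH9_DA replicate 2.

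In the phenylpropanoid and lignin list 18 of 107 loci were lower and 11 higher in SCZ_DA, with a median log2 fold change of −0.45. Called members made up 27.1% of the list, against 18.3% of described loci. With 1 DA library left out, 14 to 23 were lower and 8 to 10 higher. Phenylalanine ammonia-lyase (CSS003929), the entry enzyme of the pathway, had 25.6, 5.70 and 4.00 FPKM in SCZ_DA and 109, 36.9 and 73.1 FPKM in YH9_DA (−2.44, SE 0.80, edgeR adjusted p = 0.032), a call lost without SCZ_DA replicates 2 or 3 and without YH9_DA replicates 1 or 3. 4-coumarate-CoA ligase 2 (CSS024129), a later step, had 15.9, 12.1 and 7.47 FPKM against 68.4, 46.2 and 62.0 FPKM (−2.14, SE 0.47, edgeR adjusted p = 0.00287). A cinnamoyl-CoA reductase (CSS041588), which leads to lignin units, was higher in SCZ_DA with 111, 111 and 109 FPKM against 52.1, 43 and 35.9 FPKM (1.51, SE 0.24, edgeR adjusted p = 0.000288).

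The flavonoid branch differed at 5 of 29 loci (17.2%, near the background), 3 lower and 2 higher in SCZ_DA, with 2 to 4 lower when 1 DA library was left out. Leucoanthocyanidin reductase (CSS008513), an enzyme of catechin synthesis, had 2.74, 1.74 and 2.07 FPKM in SCZ_DA and 56.3, 8.80 and 19.7 FPKM in YH9_DA (−3.50, SE 0.72, edgeR adjusted p = 0.0019). An anthocyanidin 3-O-glucosyltransferase (CSS002785) had 4.24, 5.53 and 3.74 FPKM against 33.8, 14 and 22.3 FPKM (−2.2, SE 0.37, edgeR adjusted p = 0.000357). Chalcone isomerase, which closes the flavonoid ring, differed between its loci. CSS035110 had 106, 46.4 and 46.4 FPKM in SCZ_DA and 384, 161 and 280 FPKM in YH9_DA (−1.87, SE 0.58, edgeR adjusted p = 0.0245), a call lost without SCZ_DA replicates 2 or 3 and without YH9_DA replicates 1 or 3, whereas CSS047871 had 30.8, 20.8 and 21.9 FPKM against 9.11, 5.05 and 8.5 FPKM (1.87, SE 0.45, edgeR adjusted p = 0.00564). A flavonol synthase-like locus (CSS049248) had 4.14, 5.12 and 4.61 FPKM in SCZ_DA and was at 0, 0.0698 and 0 FPKM in YH9_DA. A MYB factor described as anthocyanin 2 (CSS053098), a regulator of anthocyanin genes in other plants, had 0.0888, 0.184 and 0.0616 FPKM in SCZ_DA and 42.8, 13.1 and 21 FPKM in YH9_DA (−7.54, SE 0.88, edgeR adjusted p = 2.13e-05).

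Purine alkaloid genes were mostly higher in YH9_DA. Of 8 caffeine and theobromine synthase loci that passed the filter, out of 13, 5 were lower and 1 higher in SCZ_DA, with a median log2 fold change of −2.90, and 4 or 5 were lower with 1 DA library left out. Called members made up 75% of the loci tested, against 18.3% of described loci. CSS009489 and CSS009866, described next, were under 1 FPKM in every SCZ_DA library and above it in every YH9_DA library. The filter on low values can favor the direction of such loci, so this share is no support on its own. The locus of caffeine synthase 4 (CSS009489) had no counts in SCZ_DA and 7.38, 9.74 and 9.70 FPKM in YH9_DA, at least 265-fold lower with a floor of 3 counts per library. Theobromine synthase locus CSS009866 had 0.390, 0.426 and 0.274 FPKM against 11.6, 14 and 14.6 FPKM (−5.03, SE 0.40, edgeR adjusted p = 7.15e-07), and CSS040436 had 5.50, 9.83 and 1.40 FPKM against 28.9, 28.7 and 37.2 FPKM (−2.36, SE 0.64, edgeR adjusted p = 0.0121). The 1 locus in the other direction, CSS004818, had 9.58, 7.78 and 6.59 FPKM against 3.12, 4.07 and 4.06 FPKM (1.26, SE 0.41, edgeR adjusted p = 0.033), a call that was kept without SCZ_DA replicate 3 and lost without any other DA library. These loci share their descriptions, their sequences were not compared here, and reads could have been divided between copies. At NA 3 of the 8 were lower in SCZ and at CA 7.

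The called aroma genes were higher in SCZ_DA. Of 30 terpene and aroma loci 9 passed the filter on low values, CSS028927 and CSS007523 through SCZ libraries alone, so that the filter set their direction, and 6 of the 9 were higher and 0 lower in SCZ_DA by edgeR (7 and 0 at an unadjusted p under 0.05, 6 and 0 with DESeq2, 3 and 0 with limma), and 3 were higher without YH9_DA replicate 2. The 6 are 66.7% of the loci tested, against 8.87% higher among described loci. With at least 5 FPKM in at least 3 libraries 2 loci were tested and 0 called, with a median log2 fold change of 0.38. A terpene synthase (CSS028927) had 4.99, 5.17 and 7.51 FPKM in SCZ_DA and 0, 0 and 0.117 FPKM in YH9_DA (7.44, SE 1.47, edgeR adjusted p = 0.00137), and another (CSS007523) had 2.61, 2.64 and 3.39 FPKM against 0.112, 0.0305 and 0.285 FPKM (4.49, SE 1.10, edgeR adjusted p = 0.00783). A carotenoid cleavage dioxygenase (CSS040431), which releases volatile ionones, was abundant in both cultivars, at 64.3, 62.8 and 86.1 FPKM in SCZ_DA and 41.1, 38.5 and 38.0 FPKM in YH9_DA. All SCZ_DA values of these loci were above all YH9_DA values, and the call of CSS040431 was lost without SCZ_DA replicate 3.

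Enzymes that decorate such products differed between the cultivars at many loci. Of 122 UDP-glycosyltransferases 41 were higher and 20 lower in SCZ_DA, or 50.0%, against 8.87% and 9.40% of described loci, and 33 to 39 were higher and 17 to 21 lower with 1 DA library left out. UGT72B23 (CSS051237) had 69.4, 66.3 and 59.3 FPKM in SCZ_DA and 0.916, 1.19 and 0.786 FPKM in YH9_DA (6.23, SE 0.55, edgeR adjusted p = 1.7e-06), and UGT91A5 (CSS023910) had 17.8, 30.9 and 30.6 FPKM against 0.238, 0.120 and 0.115 FPKM (7.49, SE 0.79, edgeR adjusted p = 8.73e-06). UGT78A15 (CSS009219) had the opposite direction, at 2.37, 1.19 and 0.360 FPKM against 55.3, 22.1 and 28.9 FPKM (−4.56, SE 0.77, edgeR adjusted p = 0.000416). Of 37 loci matched by description to serine carboxypeptidases, 11 were lower and 2 higher, 35.1% against 18.3% of described loci. With 1 DA library left out, 8 to 10 were lower. Some serine carboxypeptidase-like proteins are acyltransferases of catechin galloylation, but the list was not limited to these. CSS015968, in the list by its description as an S28 family member and not tied here to galloylation, had 3.37, 2.84 and 2.30 FPKM against 44.2, 42.0 and 43.9 FPKM (−3.76, SE 0.28, edgeR adjusted p = 4.54e-07). Serine carboxypeptidase-like 45 (CSS025120) had 3.45, 10.0 and 1.98 FPKM against 54.8, 38.2 and 41.6 FPKM (−2.98, SE 0.61, edgeR adjusted p = 0.00178). Neither pair of groups overlapped.

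Detoxification and redox families were divided. Of 37 glutathione S-transferases 9 were higher and 7 lower in SCZ_DA, and of 23 germin-like proteins 6 were higher and 7 lower. These are 43.2% and 56.5% of the loci tested, against 18.3% of all described loci. Glutathione S-transferase CSS047834 had 23.3, 31.0 and 29.8 FPKM in SCZ_DA and 301, 317 and 319 FPKM in YH9_DA (−3.31, SE 0.39, edgeR adjusted p = 2.13e-05), and the PARB type CSS000126 had 32.0, 7.58 and 6.65 FPKM against 0.218, 0.0783 and 0.210 FPKM (6.65, SE 1.42, edgeR adjusted p = 0.00243). Germin-like protein CSS010560 had 1.29, 1.81 and 1.64 FPKM against 194, 102 and 121 FPKM (−6.27, SE 0.45, edgeR adjusted p = 2.62e-07). Germin-like protein 1-18 (CSS046823) had 254, 119 and 105 FPKM in SCZ_DA and 2.01, 1.33 and 1.58 FPKM in YH9_DA (6.77, SE 1.02, edgeR adjusted p = 0.000168). Within each family, abundant members stood at the opposite ends, and reads could be shared between loci of one family. Of 97 antioxidant loci 9 were higher and 8 lower, which is 17.5% and near the background. Cu/Zn superoxide dismutase 2 (CSS027867) had 54.5, 43.9 and 56.5 FPKM against 23.5, 20.4 and 21.1 FPKM, while dehydroascorbate reductase (CSS014924) had 113, 111 and 129 FPKM against 320, 267 and 255 FPKM, ascorbate peroxidase (CSS032148) 103, 117 and 145 FPKM against 372, 218 and 250 FPKM and a glutaredoxin (CSS017503) 48.5, 44.3 and 50.0 FPKM against 170, 142 and 142 FPKM. The higher count of antioxidant loci was 4 or 5 without SCZ_DA replicate 1 or any one YH9_DA library, and the lower count 5 without SCZ_DA replicates 1 or 2. The call of CSS014924 was lost without YH9_DA replicate 1, and that of CSS032148 without SCZ_DA replicates 1 or 2, without YH9_DA replicate 1 and without SCZ_NA replicate 1, SCZ_CA replicates 2 or 3 or YH9_NA replicates 1 or 2.

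In nitrogen assimilation and amino acid transport 15 of 91 loci were lower and 10 higher in SCZ_DA, 27.5% against 18.3% of described loci. Without SCZ_DA replicate 3 the lower count was 7, and without SCZ_DA replicate 1 it was 20. Nitrite reductase (CSS001978), the chloroplast step of nitrate assimilation, had 82.4, 299 and 41.1 FPKM in SCZ_DA and 11.7, 9.83 and 15.7 FPKM in YH9_DA (3.64, SE 0.95, edgeR adjusted p = 0.00917), a call lost without SCZ_DA replicate 2. A non-symbiotic hemoglobin (CSS031888), of a family that scavenges nitric oxide, followed it across the SCZ_DA libraries at 67.0, 349 and 23.4 FPKM against 0.661, 1.06 and 2.16 FPKM (6.93, SE 1.61, edgeR adjusted p = 0.00422). In both loci replicate 2 was the highest and replicate 3 the lowest SCZ_DA library. LBD38 (CSS031562), a repressor of nitrate-response genes in Arabidopsis, had 8.16, 18.6 and 38.9 FPKM in SCZ_DA and 0, 0.130 and 0.140 FPKM in YH9_DA (8.12, SE 1.55, edgeR adjusted p = 0.00105). The transporter NPF2.13 (CSS009723) was lower in SCZ_DA, at 16.6, 20.8 and 8.36 FPKM against 124, 77.4 and 74.1 FPKM (−2.43, SE 0.51, edgeR adjusted p = 0.00203). In the synthesis of arginine, polyamines and proline 3 of 33 loci were higher and 2 lower, near the background, and the lower count was 1 without any one DA library other than SCZ_DA replicate 3. The median log2 fold change of this list was 0.14. It summed to 733 to 935 FPKM in SCZ_DA and 877 to 947 FPKM in YH9_DA, so that its sum was not higher in SCZ_DA. The loci described next are among the higher ones, and the 2 lower ones are not described. Ornithine carbamoyltransferase (CSS018072), a step toward arginine, had 43.4, 43.8 and 50.0 FPKM against 20.7, 17.4 and 19.6 FPKM (1.42, SE 0.33, edgeR adjusted p = 0.00437), and spermine synthase (CSS036083) had 7.94, 10.3 and 11.6 FPKM against 4.33, 4.36 and 4.59 FPKM (1.34, SE 0.21, edgeR adjusted p = 0.000249). Both were higher in all SCZ_DA libraries.

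Among genes of the leaf surface, 12 of 75 cuticle, wax and GDSL lipase loci were higher and 5 lower in SCZ_DA, with 16 lower without SCZ_DA replicate 2. Called members made up 22.7% of the list, against 18.3% of described loci. Lipid-transfer protein locus CSS039523 had 38.4, 18.6 and 52.4 FPKM against 1.26, 0.131 and 1.69 FPKM (5.31, SE 1.04, edgeR adjusted p = 0.00125), and CSS025796 had 29.3, 12.1 and 40.4 FPKM against 1.55, 0.718 and 2.88 FPKM (4.17, SE 0.98, edgeR adjusted p = 0.00466). Both were higher in all SCZ_DA libraries, whereas the lipid-transfer locus CSS049994, at 53.3, 191 and 46.0 FPKM against 22.6, 32.8 and 35.2 FPKM (1.81, SE 0.45, edgeR adjusted p = 0.00677), was not called without SCZ_DA replicate 2. Of 27 aquaporins, the channels that pass water, 3 were lower and 1 higher, 14.8% against 18.3% of described loci, and 7 were lower without SCZ_DA replicate 2. AQU15 (CSS020345) had 0.868, 1.12 and 1.88 FPKM in SCZ_DA and 47.4, 43 and 46.1 FPKM in YH9_DA (−4.95, SE 0.49, edgeR adjusted p = 4.87e-06), and AQU17 (CSS032875) had 44.3, 13.3 and 39.1 FPKM against 8.95, 4.78 and 8.03 FPKM (2.35, SE 0.44, edgeR adjusted p = 0.000914).

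The largest differences were at loci that 1 cultivar hardly used. An FKBP-type peptidyl-prolyl isomerase (CSS024175), a folding enzyme, had 0.434, 0.736 and 0.545 FPKM in SCZ_DA and 107, 80.5 and 87.4 FPKM in YH9_DA (−7.12, SE 0.30, edgeR adjusted p = 2.01e-09). A glycerophosphodiester phosphodiesterase (CSS020192) had 0.0959, 0.142 and 0.198 FPKM against 32.9, 37.8 and 31.8 FPKM (−7.67, SE 0.53, edgeR adjusted p = 2.2e-07), and UNUSUAL FLORAL ORGANS (CSS012279), an F-box protein of flower development in Arabidopsis, 0.138, 0.351 and 0.261 FPKM against 41.5, 46.1 and 34.8 FPKM (−7.13, SE 0.42, edgeR adjusted p = 6.1e-08). In the other direction, carboxylesterase 2 (CSS019822) had 22.5, 19.2 and 20.2 FPKM in SCZ_DA and 0.130, 0.0547 and 0.0779 FPKM in YH9_DA (7.91, SE 0.48, edgeR adjusted p = 7.25e-08). Phosducin-like protein 3 (CSS006374) had 18.1, 17.9 and 14.6 FPKM against 0.189, 0 and 0 FPKM (8.07, SE 0.79, edgeR adjusted p = 4.79e-06). These 5 loci varied little between replicates and differed in the same direction at NA and CA, where each was also called. A basic blue copper protein (CSS045609) had 2 counts in the SCZ_DA libraries and 885 in the YH9_DA libraries, a ratio of 443 between estimated counts.

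**Figure D3:**
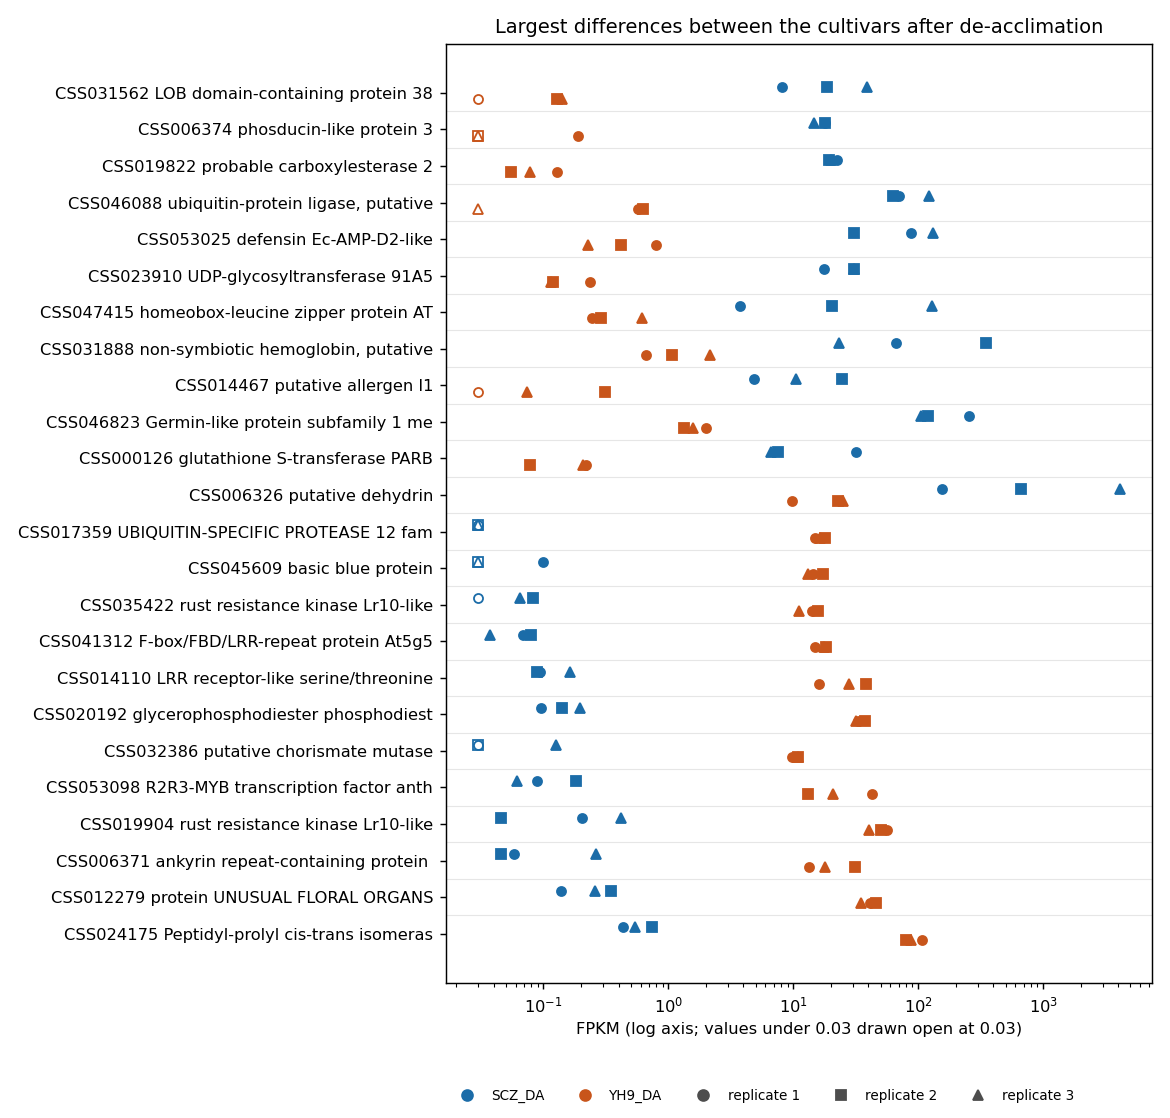
FPKM on a log axis of the described loci with the largest differences, 12 higher and 12 lower in SCZ_DA (blue) than in YH9_DA (orange), for each library; open markers stand for values under 0.03. The FKBP-type isomerase CSS024175 is at 80.5 to 107 FPKM in YH9_DA and under 1 FPKM in SCZ_DA, while the SCZ_DA values of dehydrin, ATHB-12 and hemoglobin are spread far more widely.

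At 530 of the tested loci all SCZ_DA libraries had a count of 0 while YH9_DA had counts, and at 367 loci it was the reverse. These loci were picked for having no counts in 1 DA group, so their calls and directions follow from that choice and are no support. Of the 530 loci 472 were called and 176 had a product description, and of the 367 loci 332 were called and 111 were described. Of the former 159 were without counts in all 9 SCZ libraries of the study, and of the latter 147 in all 9 YH9 libraries. Most were of low level, since the median FPKM in the other cultivar was 3.74 and 2.99, and 37 and 10 of them reached a mean of 10 FPKM. A ubiquitin-specific protease 12 family locus (CSS017359) had 15.0, 18 and 16.5 FPKM in YH9_DA and was at least 230-fold lower in SCZ_DA, with the floor of 3 counts per library. A cyclin-1-like locus (CSS021198, Scaffold271, 282250 to 283687 in the coordinates of the deposited table) had 6.23, 5.58 and 10.4 FPKM and was at least 120-fold lower. An F-box/LRR protein (CSS030589, Scaffold3780, 345041 to 346303) had 5.22, 6.24 and 6.87 FPKM in SCZ_DA and was at least 114-fold higher there. Prohibitin-3 (CSS024904) had 6.27, 5.29 and 6.08 FPKM and was at least 75.1-fold higher, and a subunit of a lysosome-related organelle complex (CSS049386) had 5.29, 5.58 and 8.66 FPKM and was at least 74.6-fold higher. These bounds treat estimated counts as reads. Among counts of 1 to 40 in a DA library 31.8% to 33.4% were multiples of 4, and 615 to 702 loci had a count of 4 against 85 to 108 with a count of 1, so that low counts are not single reads and the bounds are less certain than the floor of 3 counts alone would make them. Also, the reads of YH9 at the loci without counts cannot be told apart from reads that failed to map.

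Most of the difference between the cultivars after de-acclimation was also present before the cold. Of the 3304 loci higher in SCZ_DA 2243 were also higher in SCZ_NA, which is 67.9% of the DA list and 78.1% of the NA list, and of the 3661 lower loci 2308 were also lower at NA (63.0% and 85.6%). Of the same lists 2165 and 2504 were called in the same direction at CA, 65.5% and 68.4% of the DA lists and 58.1% and 59.8% of the CA lists. At NA 5569 loci (19.2%) were called, 9.90% higher and 9.29% lower in SCZ, and at CA 7912 loci (27.3%), 12.8% and 14.4%. These comparisons share no library. In all 3 stages 1748 loci were higher and 1906 lower in SCZ, and 631 (19.1%) and 744 (20.3%) were called at DA only. Calls in opposite directions were 2 between DA and NA and 33 between DA and CA. Of the 2412 loci called at DA and not at NA, 92.8% had the same sign at NA, with a median absolute log2 fold change of 1.64 at DA and 0.80 at NA. The libraries of each cultivar at DA resembled those of NA more than those of CA. The mean r with the libraries of the same cultivar was 0.867 to 0.908 with NA and 0.791 to 0.816 with CA in SCZ_DA, and 0.933 to 0.940 and 0.823 to 0.829 in YH9_DA.

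**Figure D4:**
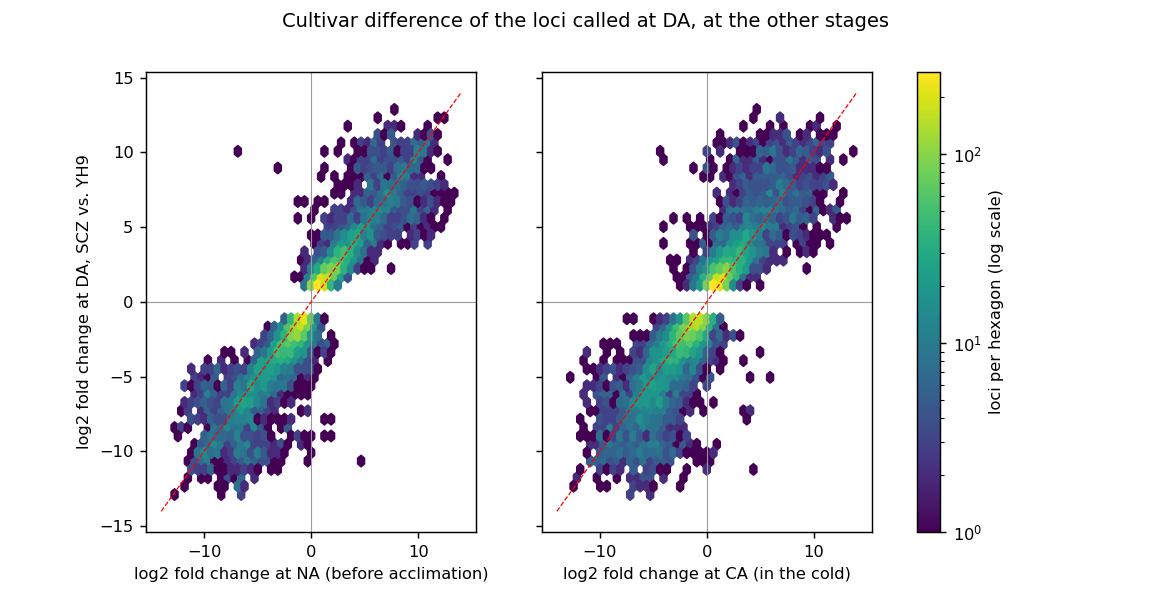
Log2 fold change of SCZ over YH9 at DA (vertical axis) against that at NA (left) and CA (right) for the 6965 loci called at DA, as density on a log color scale; the dashed line marks equal values. Most loci lie in the quadrants of equal sign, and calls in opposite directions were 2 between DA and NA and 33 between DA and CA.

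The interaction term of the fit compares the cultivar difference at DA with that at NA. It was called at 2 of 29019 loci (0.00689%) by edgeR, at 152 by DESeq2 and at 31 by limma, and 2244 loci (7.73%) had an unadjusted p under 0.05. These 2 loci have no product description and are named here after their values were seen. In SCZ, CSS014981 had a mean of 4.61 ± 1.49 FPKM (SD, n = 3) at NA, of 1348 ± 198 FPKM at CA and of 951 ± 684 FPKM at DA. In YH9 it was 3.03 ± 0.497, 232 ± 5.95 and 8.70 ± 5.95. The locus was low before and high during the cold in both cultivars, and after de-acclimation it was at 625, 491 and 1737 FPKM in SCZ_DA and at 6.52, 15.4 and 4.15 FPKM in YH9_DA. The difference between the cultivars was larger by 6.25 at DA than at NA (SE 0.786, edgeR adjusted p = 0.015) and by 4.19 than at CA (SE 0.748, edgeR adjusted p = 0.0131). The other locus, CSS047289, was low, at 0.22, 0.157 and 0.192 FPKM in SCZ_DA and 4.46, 5.98 and 5.35 FPKM in YH9_DA, and had no counts in SCZ_NA, so that its fitted interaction of 6.83 depends on how a count of 0 is treated.

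Between DA and CA the cultivar difference changed at 499 loci (1.72%), 231 (0.796%) toward SCZ and 268 (0.924%) toward YH9. Of the 231 loci 97 were called higher in SCZ_DA, 25 were called lower and 109 were not called at DA, and of the 268 loci 117 were called lower, 18 higher and 133 not. Leaving out 1 library gave 184 to 754 loci, with 184, 190 and 201 without YH9_DA replicates 2, 1 and 3, 232 without SCZ_DA replicate 2, 190, 197 and 277 without YH9_CA libraries and 754 without SCZ_NA replicate 1. DESeq2 called 1804 and limma on log2(FPKM + 1) 1624. Germin-like proteins were among the loci that turned. CSS001294 had 766 ± 242 FPKM at NA, 48.5 ± 8.29 FPKM at CA and 483 ± 119 FPKM at DA in SCZ, against 187 ± 56.1, 159 ± 43.6 and 155 ± 48.6 FPKM in YH9 (DA minus CA 3.31, SE 0.469, edgeR adjusted p = 0.00376). The locus was lower in SCZ than in YH9 in the cold and higher at DA, with 473, 607 and 370 FPKM against 210, 118 and 136 FPKM. CSS019483, another germin-like protein, showed the same pattern, with 271 ± 64.0 FPKM in SCZ_DA and 27.8 ± 4.96 in SCZ_CA against 129 ± 31.4 and 128 ± 36.7 in YH9 (3.22, SE 0.479, edgeR adjusted p = 0.00547), and its call at DA was lost without YH9_DA replicate 2. CSS037808, a wax and cutin transporter of the ABCG11 type, had 72.5, 145 and 17.4 FPKM in SCZ_DA and 4.31, 4.16 and 5.4 FPKM in YH9_DA, but 70.1 ± 43.9 and 95.1 ± 20.5 FPKM at CA (4.44, SE 0.994, edgeR adjusted p = 0.0374).

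At other loci the cultivar difference moved toward YH9 between CA and DA. The metallothionein-like locus CSS008737, of a family of metal-binding proteins, had 1.16, 0.336 and 3.17 FPKM in SCZ_DA and 387, 46.1 and 114 FPKM in YH9_DA, against 1.60 ± 0.213 and 1.42 ± 0.0954 FPKM at CA (−7.00, SE 1.34, edgeR adjusted p = 0.0183). In YH9 it was at 131 ± 67.6 FPKM at NA, so that it was low in the cold only. The cell cycle factor E2FA (CSS013707) had 0.160, 0.172 and 0.0690 FPKM in SCZ_DA and 16.5, 15.0 and 11.6 FPKM in YH9_DA, and 3.52 ± 1.15 FPKM in YH9_CA (−4.05, SE 0.697, edgeR adjusted p = 0.0111). The PR-4-like locus CSS024925 had 23.7 ± 11.2 FPKM in SCZ_CA and 7.83 ± 1.60 in SCZ_DA, against 20.8 ± 5.08 and 55.9 ± 5.79 in YH9 (−3.04, SE 0.523, edgeR adjusted p = 0.0111). Leucoanthocyanidin reductase CSS008513 was near 0 in both cultivars in the cold, at 0.788 ± 0.724 and 0.412 ± 0.0747 FPKM, and its DA minus CA difference was −4.59 (SE 0.992, edgeR adjusted p = 0.0319). The glycosyltransferase locus CSS026887 had 49.1 ± 32.2 FPKM in SCZ_CA and 8.53 ± 4.04 in SCZ_DA, against 9.55 ± 0.905 and 38.2 ± 16.8 in YH9 (−4.52, SE 0.694, edgeR adjusted p = 0.00625). CSS005827 had 40.7 ± 13.1 FPKM in SCZ_CA and 10.7 ± 3.33 in SCZ_DA, against 1.41 ± 0.126 and 5.69 ± 1.14 in YH9 (−3.94, SE 0.443, edgeR adjusted p = 0.0014). In these glycosyltransferases the order of the cultivars did not move alike, since CSS026887 passed from higher to lower in SCZ between CA and DA, and CSS005827 stayed higher, although its call at DA was lost without SCZ_DA replicates 1 or 3 and without YH9_DA replicates 2 or 3.

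**Figure D5:**
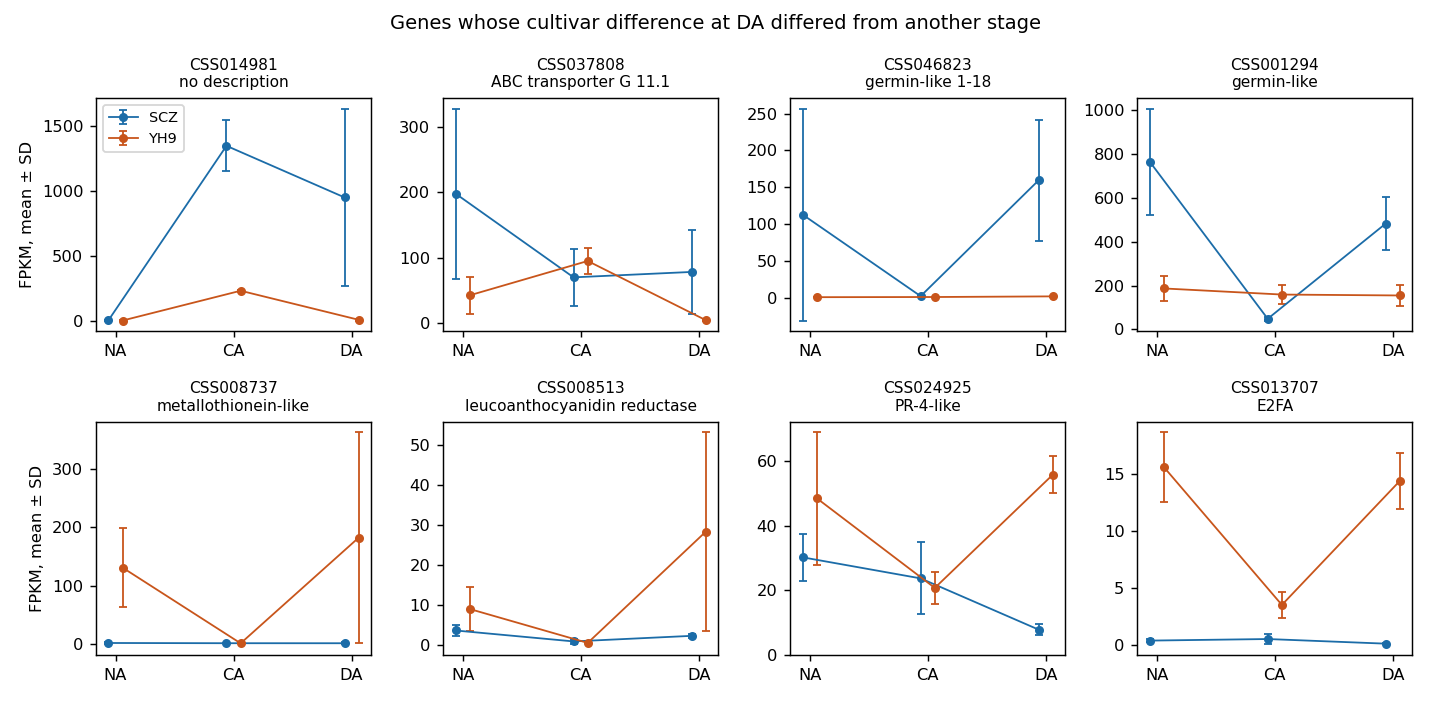
Mean FPKM with SD (n = 3) at NA, CA and DA in SCZ (blue) and YH9 (orange) of 8 loci whose cultivar difference at DA differed from that at another stage. CSS014981 has 951 ± 684 FPKM in SCZ_DA, with replicate 3 the highest, against 1348 ± 198 FPKM in SCZ_CA, and returns to 8.70 ± 5.95 FPKM in YH9_DA; the metallothionein-like locus CSS008737 is low in YH9 at CA only and low in SCZ at all stages.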

How the data were processed

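Leaf RNA of 2 tea cultivars at 3 stages was sequenced in 18 libraries, 3 per group. Per the labels, the submitters' processing notes name cutadapt 1.9, HISAT2 2.2.1, UMI-tools, StringTie 2.1.6, DESeq2 and edgeR. The authors deposited 1 table of 41021 loci with FPKM values, scaled by transcript length and library size, and estimated counts in whole numbers, not normalised, each for 18 libraries. The authors mapped the reads of both cultivars to 1 tea reference genome, and loci are named by its identifiers. The deposited estimated counts favor multiples of 4 at low values, so they are not single reads. Estimated counts can divide reads between near-identical copies, and whether strand was used in counting was not given in the sources used here.

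Loci with at least 1 FPKM in at least 3 libraries (29019) were tested on the estimated counts with edgeR 4.0.16 in R 4.3.3, using TMM factors, 1 mean per group over all 18 libraries, the quasi-likelihood test and Benjamini-Hochberg adjustment over all loci. A difference was called at an adjusted p under 0.05 and a fold change of at least 2, the thresholds of the study. The change of the cultivar difference between stages was called at the same thresholds. FPKM values are printed per library, and fold changes come from the counts. The code was tested on simulated counts. Where 1 group had no counts, a floor of 3 counts per library was used.

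Gene lists (49, of them 7 of cell type markers) were patterns in the product descriptions, and 311 loci that join several gene names were left out of them. The members and lists were chosen with earlier results of these data known. Named genes were drawn from the 12 largest differences in each direction with a product description and a mean of at least 10 FPKM, up to 3 called members per list and direction with the highest FPKM, the 5 largest changes between stages in each direction, the 5 most abundant loci without counts in 1 cultivar, and RT-qPCR targets. Most RT-qPCR targets of the study are not described, so those named do not stand for all of them. CSS037540, CSS024403, CSS014981 and CSS047289 were named after their values were seen. An argininosuccinate synthase locus whose FPKM and counts disagreed is not described. Alternatives were other filters, factors, thresholds and pseudocounts, DESeq2 1.42.0, limma 3.58.1 on log2(FPKM + 1), and each library left out.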

Additional observations from a re-analysis of the deposited data

Results flagged for a closer look

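At 24 loci the difference between the cultivars after de-acclimation was itself different from that at another stage, by the interaction of the edgeR fit, and values are given as log2 differences, positive where the gap moved toward SCZ. These loci are among 499 called in this way over all 29019 loci for DA minus CA and 2 for DA minus NA. CSS014981, without a description, differed by 6.25 between DA and NA (SE 0.786, edgeR adjusted p = 0.015) and by 4.19 between DA and CA (SE 0.748, edgeR adjusted p = 0.0131), and CSS047289 by 6.83 (SE 0.807, edgeR adjusted p = 0.015) and −3.66 (SE 0.540, edgeR adjusted p = 0.00716).

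Toward SCZ between CA and DA moved the germin-like proteins CSS001294 (3.31, SE 0.469), CSS019483 (3.22, SE 0.479) and CSS046823 (5.17, SE 1.23), the glycosyltransferase UGT72B23 CSS051237 (3.75, SE 0.640) and the ABCG11-type transporter CSS037808 (4.44, SE 0.994). The clock gene APRR5 CSS005113 changed by 1.78 (SE 0.426), the caffeine synthase locus CSS004818 by 2.60 (SE 0.589) and the 13-lipoxygenase CSS021042 by 2.26 (SE 0.460). Among enzymes of pectin, a pectinesterase CSS009939 changed by 4.23 (SE 0.949) and a polygalacturonase-type protein CSS028593 by 5.65 (SE 1.31). At both, SCZ_DA replicate 2 was far above the other libraries, with 55.6 and 39.1 FPKM against at most 13.7 and 4.83 FPKM, and their calls at DA were lost without it.

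Toward YH9 moved the metallothionein-like CSS008737 (−7.00, SE 1.34), E2FA CSS013707 (−4.05, SE 0.697), leucoanthocyanidin reductase CSS008513 (−4.59, SE 0.992) and UNUSUAL FLORAL ORGANS CSS012279 (−2.50, SE 0.483). Of defense type were the PR-4-like CSS024925 (−3.04, SE 0.523), thaumatin-like 1b CSS031535 (−3.16, SE 0.718) and the lectin receptor kinase CSS006999 (−2.59, SE 0.532). The glycosyltransferases CSS005827 and CSS026887 changed by −3.94 (SE 0.443) and −4.52 (SE 0.694), the lipoxygenase CSS048982 by −2.36 (SE 0.513) and spermine synthase CSS036083 by −1.26 (SE 0.297). A ubiquitin hydrolase CSS041429, with no counts in SCZ_DA and 6.11, 7.19 and 6.22 FPKM in YH9_DA, had a fitted change of −6.06 (SE 1.34) that depends on how a count of 0 is treated. Of 33 other settings, the calls of CSS041429, CSS028593, CSS036083, CSS046823 and CSS005113 held in 13, 14, 14, 16 and 16, and none of the 26 changes turned its sign in any of them. These changes were picked for being called, and the settings refit the same libraries, so that a kept sign is no support.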

How the results depend on the processing

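The count of loci called at DA was 4459 to 8263 under the other filters, scaling factors, tools and thresholds and 4190 among loci with a gene name or description, and loci shared with the full set of 6965 calls kept their sign in all of them. DESeq2 called 7757 loci, which included 99.1% of the 6965, and limma on log2(FPKM + 1) called 6400, which included 80.9%. Of the values of named genes, 2247 stayed on their side of the threshold when a library was left out, 110 lost their call and 1 gained it, and under other settings 1876 stayed and 87 lost it, while 0 reversed. Most of these loci were picked for being called, and the settings refit the same libraries, so that the kept signs of this paragraph are no support. Whether the numbers of the replicates pair the libraries is not given by the labels. Same-numbered SCZ_DA and YH9_DA libraries deviated from their group means with r of 0.159, 0.057 and −0.037, and pairs of unlike number with −0.137 to 0.0725. With 3 libraries per group these values cannot show whether same-numbered libraries shared an experiment. With a replicate block 6695 loci were called at DA, 0 changed between DA and NA and 285 between DA and CA.

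With at least 5 FPKM, 3629 loci were called at NA, 406 list members at DA, and 3019 and 3108 calls were shared with NA and CA, where fewer loci were tested. At a minimum of 4-fold, 4459 loci were called at DA, 4759 at CA and 467 in the lists. Among loci with a gene name or description the calls were 4190 at DA, 2984 at NA and 5238 at CA, with 2318 and 2575 shared. The DA minus NA change was called at 152 loci by DESeq2, 31 by limma on log2(FPKM + 1), 4 with the filter set on the DA libraries, 1 with counts divided by 4 and 0 with only the groups compared. The DA minus CA change was called at 1804 loci by DESeq2 and at 1624 and 831 by limma with a pseudocount of 1 and 0.1, and the cause was not tested. Loci without counts in 1 cultivar numbered 5377 with no filter, 344 with at least 5 FPKM, 366 among loci with a gene name or description and 1711 with a mean FPKM under 0.1 as the definition. Without 1 library, the calls ranged from 5715 to 7471 at DA, 4804 to 5995 at NA, 6656 to 8316 at CA and 556 to 798 in the lists, shared calls from 4042 to 4855 with NA and 4080 to 4877 with CA, changes from 0 (without YH9_DA replicate 3) to 12 for DA minus NA and 184 to 754 for DA minus CA, and loci without counts from 975 to 1106. The totals of 49858297 to 67637781 estimated counts per DA library set the precision, which is lowest at loci of few counts.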

Other observations

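Growth hormones and the cell wall showed differences at single loci. Of 100 auxin loci 8 were higher and 9 lower in SCZ_DA by edgeR, near the 8.87% and 9.40% of described loci. A pair of auxin transport carriers with consecutive identifiers stood at opposite ends, and reads could be shared between such copies. CSS050420 had 7.29, 8.16 and 7.81 FPKM in SCZ_DA and 71.1, 40.7 and 38.1 FPKM in YH9_DA (log2 fold change −2.51, SE 0.30, edgeR adjusted p = 2.82e-05), and CSS050419 had 22.3, 20.9 and 14.7 FPKM against 7.95 to 11.5 FPKM (1.09, SE 0.28, edgeR adjusted p = 0.00843), a call lost without SCZ_DA replicate 1 or YH9_DA replicate 3. Of 27 gibberellin, brassinosteroid and cytokinin loci 5 were higher and 3 lower, with 2 or 3 higher without SCZ_DA replicate 3 or any one YH9_DA library and 5 lower without SCZ_DA replicate 2. Called members made up 29.6% of this list, against 18.3% of described loci. An enzyme that activates cytokinins (CSS038961) had 7.82, 8.58 and 5.37 FPKM against 0.124, 1.32 and 1.17 FPKM (3.18, SE 0.80, edgeR adjusted p = 0.00719). Gibberellin 20-oxidase (CSS052891), of gibberellin synthesis, had 12.9, 24.5 and 43.2 FPKM against 10.6, 8.27 and 8.31 FPKM (1.75, SE 0.53, edgeR adjusted p = 0.0215), and gibberellin 2-beta-dioxygenase 8-like (CSS025179), of a family that inactivates gibberellins, had 25.9, 26.8 and 29.8 FPKM against 15.5, 11.4 and 11.7 FPKM (1.28, SE 0.45, edgeR adjusted p = 0.0446). Both were higher in every SCZ_DA library, and both calls were lost without SCZ_DA replicate 3 or any one YH9_DA library, that of CSS025179 also without SCZ_DA replicates 1 or 2, SCZ_NA replicate 3, YH9_NA replicate 1 or any one YH9_CA library.

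Of 42 expansin and xyloglucan loci 1 was higher and 4 lower in SCZ_DA, and 8 were lower without SCZ_DA replicate 2, 1 without SCZ_DA replicate 1 and 2 without SCZ_DA replicate 3 or YH9_DA replicate 3. The expansin-related CSS001654 had 27.2, 20.5 and 9.41 FPKM against 1.87, 1.11 and 0.823 FPKM (4.07, SE 0.77, edgeR adjusted p = 0.000934). Of 58 pectin and hemicellulose enzymes 9 were higher and 3 lower, and 8 were lower without SCZ_DA replicate 2 and 1 without SCZ_DA replicate 3. Called members made up 11.9% of the expansin list and 20.7% of the pectin list, against 18.3% of described loci. The pectinesterase CSS018940 had 5.29, 35.9 and 6.99 FPKM against 0.330, 0.833 and 1.36 FPKM (4.37, SE 0.89, edgeR adjusted p = 0.00175), with replicate 2 the highest, and beta xylosidase (CSS050713) had 36.3, 27.8 and 16.8 FPKM against 100, 121 and 103 FPKM (−1.83, SE 0.50, edgeR adjusted p = 0.0113), a call lost without SCZ_DA replicate 3. Of 16 Rubisco and carbon fixation loci 3 were higher and 0 lower by edgeR, by the unadjusted test and by DESeq2, and 2 and 0 by limma. The 3 are 18.8% of the list, against 8.87% higher among described loci. A Rubisco small chain (CSS053447) had 1579, 2220 and 819 FPKM against 313, 588 and 507 FPKM (1.86, SE 0.44, edgeR adjusted p = 0.00498).

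Of 116 cytochrome P450 loci 15 were higher and 17 lower, 27.6% against 18.3% of described loci. CYP72A219 (CSS010559) had 49.4, 48.7 and 41.9 FPKM against 6.89, 9.96 and 4.38 FPKM (2.89, SE 0.53, edgeR adjusted p = 0.000828), and a P450 71A1-like locus (CSS011486) had 76.2, 74.7 and 110 FPKM against 251, 341 and 266 FPKM (−1.54, SE 0.44, edgeR adjusted p = 0.0151), a call lost without SCZ_DA replicates 1 or 2 or YH9_DA replicate 2. Of 52 ethylene-responsive factors 4 were higher and 0 lower by edgeR (7 and 6 at an unadjusted p under 0.05, 5 and 4 with DESeq2, 3 and 1 with limma), with 2 higher without SCZ_DA replicate 3 or any one YH9_DA library, and the AP2/ERF locus CSS017941 had 14.2, 5.20 and 24.9 FPKM against 1.12, 1.20 and 2.37 FPKM (3.42, SE 0.66, edgeR adjusted p = 0.0011). Of 19 fatty acid desaturases 4 were lower and 0 higher (3 higher at an unadjusted p under 0.05, 1 with DESeq2 and 0 with limma), with 2 lower without SCZ_DA replicate 3. Called shares were 7.69% for the ethylene-responsive factors and 21.1% for the desaturases, against 18.3% of described loci. Of 76 MYB factors 6 were higher and 6 lower, of 40 NAC factors 1 and 2, of 51 heat shock proteins 4 and 1, of 42 histone and cell division loci 4 and 1, and of 9 transposon-derived loci 1 and 4. In this order the called shares were 15.8%, 7.5%, 9.8%, 11.9% and 55.6%, against 18.3% of described loci. The higher count was 2 and 3 for MYB factors without YH9_DA replicate 1 and SCZ_DA replicate 3, 2 for heat shock proteins without YH9_DA replicate 1, and 1 and 2 for histones without SCZ_DA replicate 3 and YH9_DA replicate 2. The 1 early light-induced protein was not called. Among markers by edgeR, phloem had 4 higher and 0 lower of 15 (0 lower became 2 at an unadjusted p under 0.05, 1 with DESeq2 and 2 with limma), trichome and epidermis 3 and 4 of 34, root 3 and 1 of 22, xylem 1 and 3 of 34, and guard cell 0 and 0 of 4 (0 and 1 at an unadjusted p under 0.05 and with DESeq2). The called shares of these marker lists were 26.7%, 20.6%, 18.2%, 11.8% and 0%, against 18.3% of described loci.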
